A study of Homo sapiens with 80 samples.

Results

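The distal part of the long arm of chromosome 3 was described here as a segment of 136 genes, all the rows of the nascent-transcript table that start between 172.751 and 197.03 Mb and average at least 50 counts over its 6 libraries. The segment spans 24.3 Mb. It held 161 rows of the 17792 in the table, of which 21 averaged fewer than 50 counts and 4 were left out by the rule. The segment was picked out because its nascent transcription was raised in drug-resistant cells, so the nascent values below describe the choice and carry no test. Coordinates are those of the deposited table, which was made on hg38.

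The cells were SU-DHL-1, a human anaplastic large cell lymphoma line of T-cell origin that carries an ALK fusion. In PRO-seq, DGE and the ZFP91 RNA-seq, 3 resistant pools were set against 3 samples of the parental line. The pools had been selected separately by long culture in rising lenalidomide and had then been kept without drug for at least 2 months; they are called regrown, and their replicate number is the number of the pool. Nascent transcription was measured by PRO-seq. Messenger RNA was counted at its 3′ end (digital gene expression, DGE) after 18 h in 2.5 µM lenalidomide or in the vehicle DMSO. RNA-seq was made from Cas9-expressing regrown and parental cells with an inducible guide against ZFP91, either after 96 h in 1 µg/ml doxycycline (labelled knockout) or without induction (labelled WT). Further RNA-seq set cells carrying a CSNK2B vector against empty-vector cells, in SU-DHL-1 and in another ALK-positive line, KI-JK. Each group had 3 libraries. The parental replicates and those of the vector experiments are not stated to be separate cultures, so their spread may be technical.

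Library totals ran between 33.5 and 47.2 M counts (M, 1e6) in PRO-seq, 15.4 and 23.1 M in the ZFP91 RNA-seq, 14.4 and 24.1 M in the SU-DHL-1 vector experiment, and 23.1 and 28.9 M in the KI-JK one. The DGE libraries were far smaller, between 41571 and 395827 counts, and the smallest was parental lenalidomide replicate 3. ALK was at 591 to 603 CPM (counts per 1e6 counts of the library, scaled by edgeR's TMM factors) in the regrown WT libraries and at 525 to 542 CPM in the parental WT libraries. ALK is 1 of 12 markers of this lymphoma and of T cells, of which 3 lay higher in regrown WT libraries and 4 lower with no overlap, and 5 overlapped. TNFRSF8 (CD30), which marks this lymphoma, was at 321 to 354 CPM in regrown WT libraries and at 492 to 563 CPM in parental WT ones. The 12 summed to 3987 to 4593 CPM in regrown WT libraries and to 4643 to 5014 CPM in parental WT ones, and the myeloid markers CD14, LYZ and CSF1R to 5.65 to 8.67 CPM in regrown WT and 14.2 to 16.8 CPM in parental WT libraries; the part of these differences in the results below was not tested. The T-cell markers CD2 and CD4 were at 0 in all WT libraries, and CD3E and CD7 reached at most 0.361 CPM. The T-cell markers CD3D and CD5 were expressed. CD3D was at 34.7 to 40.9 CPM in regrown WT and 30.5 to 38.8 CPM in parental WT libraries. CD5 was at 39.1 to 57.9 CPM in regrown WT and 87.2 to 95.9 CPM in parental WT libraries. Of the 136 genes, 135 had a row in the RNA-seq tables and 97 in the DGE table; 113 carry gene names and 23 only a clone or identifier name.

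Gain of distal 3q is a recurrent feature of several human cancers. The region holds genes of protein synthesis (EIF4G1, EIF4A2), the transferrin receptor gene TFRC, the transcriptional repressor gene BCL6 and the lineage factor genes SOX2 and TP63. Genes on a gained stretch often change together, while genes under their own regulatory control can depart from their neighbours. PRO-seq maps engaged RNA polymerase and so reads transcription itself, whereas RNA-seq and DGE read the RNA that has accumulated. DNA copy number was not analysed here, and its part in the changes was not tested.

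In PRO-seq the segment's genes lay higher in the regrown pools along nearly its whole length. Their median log2 change, regrown over parental, was 0.94, and 121 of 136 were above 0; the median over all 16456 genes tested was 0.02. By edgeR's quasi-likelihood test at an adjusted p under 0.05, the higher call took 108 members, where 14% of all genes were called higher. The lower call took 7, where 16.2% of all genes were called lower. These counts restate the rule and are given for reference.

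**Figure D1:**
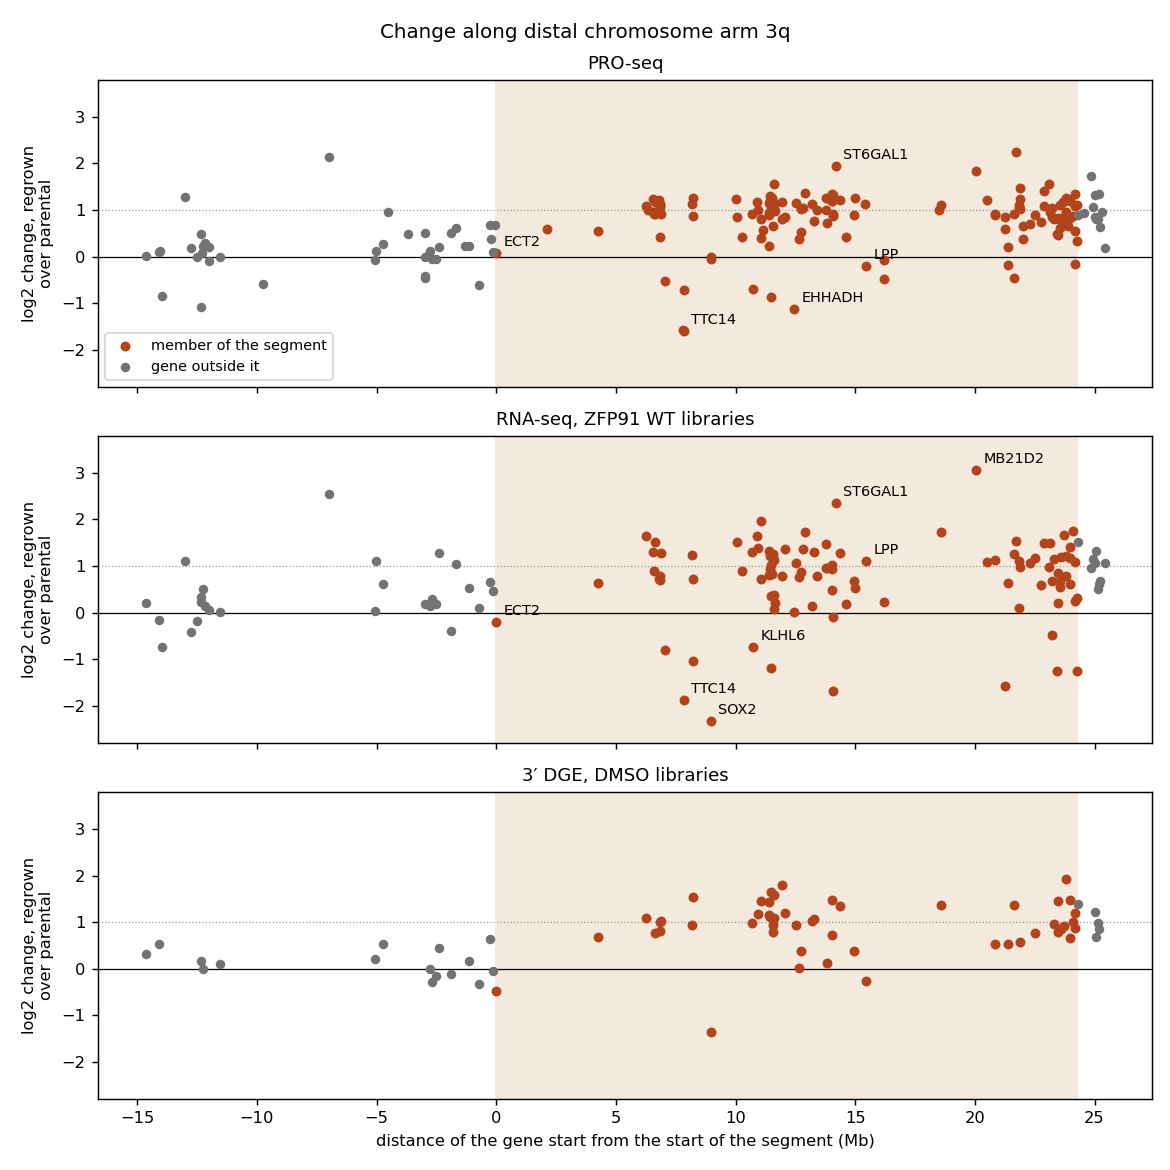
Log2 change, regrown over parental, of each gene in PRO-seq, RNA-seq (ZFP91 WT libraries) and DGE (DMSO libraries), against the distance of its start from the start of the segment in Mb. Members are orange on the shaded span and other genes of at least 50 mean PRO-seq counts are grey; most members lie near 1 in every panel (medians 0.94, 0.93 and 0.98), ECT2 at the left edge lies near 0, and the grey genes right of the segment lie as high as the members.

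The change was not even along the segment. ECT2, a guanine nucleotide exchange factor of cell division and the first gene, had a PRO-seq log2 change of 0.08 ± 0.13 (SE), NAALADL2 had 0.58 and TBL1XR1, a subunit of corepressor complexes, had 0.54. In RNA-seq ECT2 was at 104, 129.8 and 121 CPM in the regrown libraries, against 140.0, 137 and 134 CPM in the parental libraries (a log2 change of -0.21 ± 0.10 (SE) with an edgeR adjusted p of 0.086), a difference that passed the test without TMM scaling or without regrown WT replicate 2. From ZMAT3, an RNA-binding zinc-finger gene about 6 Mb further on, the log2 changes were near 1 (1.09 for ZMAT3 and 1.01 for the next gene, AC076966.1). The members starting 5 to 10 Mb into the segment had a median of 0.94 (22 genes), those at 10 to 15 Mb 1.02 (55 genes), those at 15 to 20 Mb 0.46 (6 genes) and those at 20 to 25 Mb 0.89 (50 genes). The stretch at 15 to 20 Mb, which contains LPP and TPRG1, holds few members and lay lowest of these.

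Both edges of the segment are set by the rule. On the centromeric side the 5 nearest genes outside it were mixed, with PRO-seq log2 changes of -0.62 for FNDC3B, 0.67 for TNFSF10 (the TRAIL gene), 0.37 for AC007919.1, 0.10 for NCEH1 and 0.68 for ENSG00000287012. The last 5 members on the telomeric side were NCBP2-AS1 at 0.55, NCBP2-AS2 at 1.09, PIGZ at -0.17, MELTF at 0.34 and MELTF-AS1 at 1.10. Past the telomeric edge the genes were as high as the members: DLG1 was at 0.88, DLG1-AS1 at 0.94, AC132008.2 at 1.74, RUBCN at 1.07 and FYTTD1 at 0.85. All 12 genes between the segment and the end of the chromosome were above 0, with a median of 0.91. The telomeric edge is therefore a boundary of the rule and not one of the signal in these libraries.

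The genes beyond the segment took no part in choosing the members, though they lie beside it. In RNA-seq from the WT libraries, 9 of them were tested and all 9 were called higher, where 22.6% of all genes were. The median log2 change of the 9 was 1.06. FYTTD1, an mRNA export adaptor, had a log2 change of 1.06 ± 0.09 (edgeR adjusted p = 3.58e-07), and DLG1, a scaffold protein of cell junctions and the immune synapse, had 1.52 ± 0.11 (edgeR adjusted p = 1.11e-07). The rest of chromosome 3 stood lower. The median PRO-seq log2 change was 0.30 over 419 genes of the short arm and 0.22 over 321 genes of the long arm before the segment; in RNA-seq these medians were 0.42 and 0.28. No test was made of the segment against the rest of the chromosome.

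At the count minimum, the members with the fewest counts were AC090425.1 with a mean of 58.5 counts and a log2 change of 1.06, AC007620.2 with 64.8 counts and 1.18, and AC131235.1 with 64.8 counts and 0.23. Just under it lay ENSG00000287005 with 49.5 counts and 0.13, EEF1A1P8 with 44.7 counts and 0.10, and AC131235.4 with 35.5 counts and 0.84.

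The 3 pools, which were selected apart from each other, showed the raised segment alike. The median log2 ratio of a pool to the parental mean, over the 136 members, was 0.89, 0.95 and 0.88 in pools 1, 2 and 3. Each parental library, set against the other parental libraries, had a median of -0.03, -0.02 and 0.00. In RNA-seq of the WT libraries the pools stood at 0.93, 0.87 and 0.83 over 101 tested members, against 0.00, 0.00 and 0.00 in the parental libraries, and in the knockout libraries at 0.93, 0.92 and 0.95 over 102 members, against 0.00, 0.00 and 0.00. So the pools of each of these assays stood close to each other and apart from every parental library. In PRO-seq the distance from the parental libraries restates the choice of the segment.

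**Figure D2:**
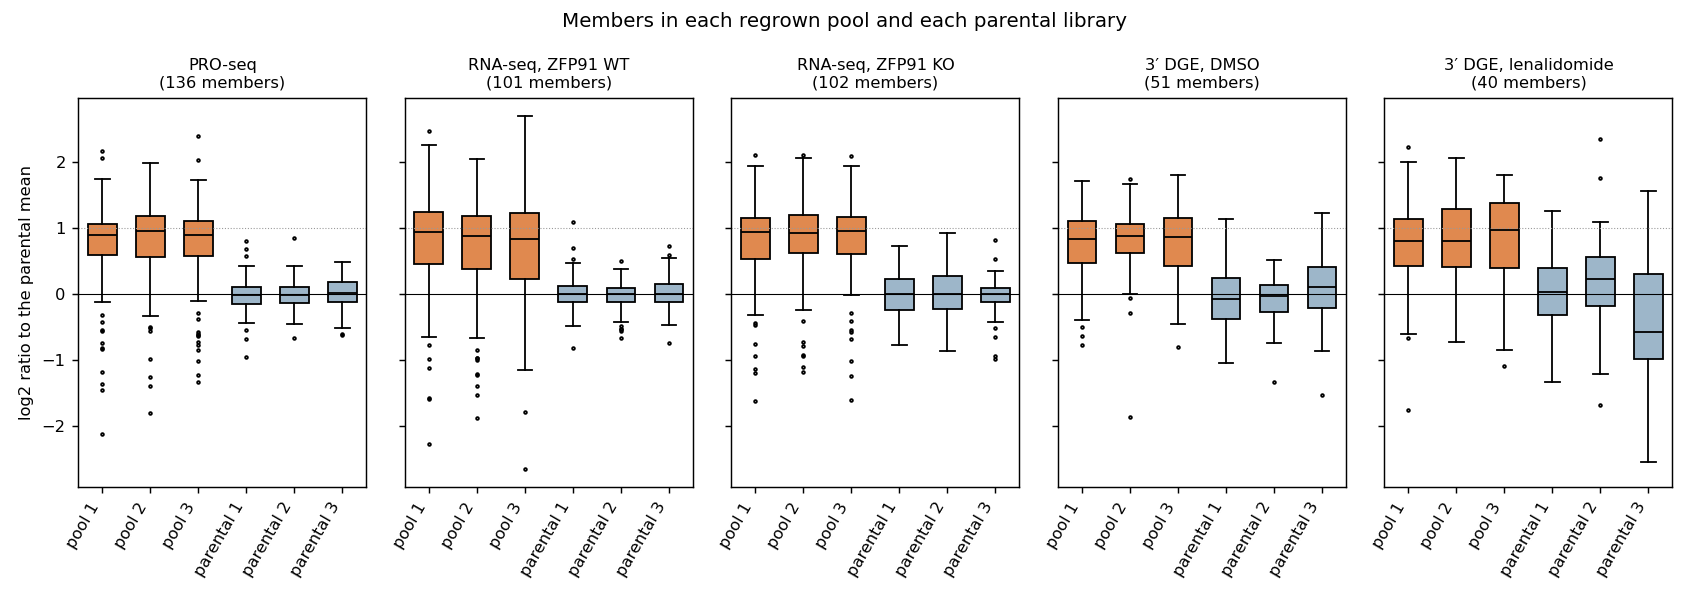
Log2 ratio of each member to the parental mean in each of 5 sets of libraries, as a box (median, quartiles, whiskers to 1.5 times the quartile range, points beyond) for each regrown pool on the left in orange and each parental library on the right in blue. A parental library is set against the other parental libraries of its set; the pool medians lie between 0.80 and 0.96, and parental lenalidomide replicate 3, the shallowest DGE library, lies at -0.58.

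The summed level of the members, which uses no filter on low counts, gave the same order. In PRO-seq the members summed to 9106, 8941 and 8654 CPM in the regrown libraries and to 5035, 5138 and 4929 CPM in the parental libraries. The RNA-seq sums over 135 members were 9932, 9769 and 10051 CPM in the regrown WT libraries and 4812, 4694 and 4581 CPM in the parental WT libraries, a ratio of means of 2.11. The DGE sums over 97 members were 7059.9, 7605 and 7271 CPM in the regrown DMSO libraries and 3862, 3710.5 and 3968 CPM in the parental DMSO libraries, a ratio of 1.9. Regrown and parental libraries did not overlap in RNA-seq or DGE. They did not overlap in PRO-seq either, where this restates the choice of the segment. In these bulk samples a larger change in some cells and a smaller one in all cells cannot be told apart.

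The RNA-seq libraries had no part in the rule, although they come from the same pools, and there the members were tested one by one. In the WT libraries 69 of 101 tested members were called higher in regrown cells (68.3%), where 22.6% of all 13379 genes were, and 6 were called lower (5.94%), where 21.1% of all genes were. The other 26 tested members were not called, 34 had a row but too few reads to be tested, and 1 had no row. In the knockout libraries the counts were 77 higher and 7 lower of 102, where 18.6% and 19.8% of 13444 genes were called. Of the 99 members tested in both, 67 were higher in both, 5 were lower in both and none was called in opposite directions. Of the 101 members tested in the WT libraries, 94 pass the filter on low counts in each group taken alone, 4 only in the regrown group and 3 only in the parental group; of the 94, 67 were called higher and 5 lower. The WT median log2 change was 0.93 and the knockout one 0.98, beside 0.00 and 0.00 over all genes.

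The members are described next by role, in lists that share the segment's rise: 68.3% of all tested members were called higher in the WT libraries and 75.5% in the knockout libraries, and no list was tested against the other members. Of the 12 genes of protein synthesis and RNA binding, 11 were called higher in the WT libraries and 12 in the knockout libraries. EIF4G1, the scaffold of the cap-binding translation initiation complex, stood at 2159, 2004 and 2147 CPM in the regrown libraries, against 973, 838 and 807 CPM in the parental libraries, a log2 change of 1.27 ± 0.09 (SE) with an edgeR adjusted p of 1.31e-07. FXR1, an RNA-binding protein of the fragile X family, stood at 210.3, 219 and 237 CPM in the regrown libraries, against 95, 92.5 and 93.6 CPM in the parental libraries, a log2 change of 1.24 ± 0.09 (SE) with an edgeR adjusted p of 7.73e-08. IGF2BP2, which binds and stabilises mRNAs, had the strongest change of the 4 named here, with 71.7, 66 and 81.3 CPM in the regrown libraries, against 23.6, 24.2 and 18.7 CPM in the parental libraries (a log2 change of 1.72 ± 0.12 (SE) with an edgeR adjusted p of 1.16e-07). The groups were far apart for all of these, which were named for their low p in this comparison. NCBP2, the small subunit of the nuclear cap-binding complex, had a log2 change of 1.09 ± 0.10 (edgeR adjusted p = 1.02e-06). It overlaps another row on the opposite strand, and whether the RNA-seq counting used strand is not given in the sources used here. The 1 member of this list not called in the WT libraries was TRA2B, a splicing regulator, at 267, 315 and 262 CPM in the regrown libraries, against 246, 249.9 and 268 CPM in the parental libraries, which overlap (a log2 change of 0.14 ± 0.09 (SE) with an edgeR adjusted p of 0.238).

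In the list of transcription factor and chromatin genes, 10 of 11 were called higher in the WT and in the knockout libraries. The other, SOX2, was called lower in both. Of all genes 22.6% were called higher and 21.1% lower in the WT libraries, and 18.6% and 19.8% in the knockout libraries. The list counts ZMAT3, which was described above as an RNA-binding zinc-finger gene. ZMAT3 was at 233, 189 and 254 CPM in the regrown libraries, against 73.9, 73.9 and 66.9 CPM in the parental libraries, a log2 change of 1.65 ± 0.11 (SE) with an edgeR adjusted p of 6.06e-08. YEATS2, a reader of acylated histones, had a log2 change of 1.39 ± 0.09 and RNF168, a ubiquitin ligase that marks chromatin at DNA breaks, had 1.67 ± 0.13 (edgeR adjusted p = 6.19e-08 and 1.7e-07). ZNF639, a zinc-finger gene, had 1.30 ± 0.10 (edgeR adjusted p = 2.24e-07). BCL6, a repressor best known from germinal centre B cells and chosen for mention after its values were seen, stood at 78.3, 73.7 and 70.8 CPM in the regrown libraries, against 48, 46.7 and 45.1 CPM in the parental libraries (a log2 change of 0.67 ± 0.09 (SE) with an edgeR adjusted p of 5.14e-05). Its regrown libraries lay above all parental ones, by less than the segment's median.

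All ubiquitin, SUMO and proteasome genes but KLHL6 were called higher in the WT libraries (9 of 10, where 68.3% of all tested members and 22.6% of all genes were). SENP5, a SUMO protease, was at 151, 119.8 and 155 CPM in the regrown libraries, against 45.5, 42.8 and 37.8 CPM in the parental libraries, a log2 change of 1.75 ± 0.12 (SE) with an edgeR adjusted p of 5.11e-08. PSMD2, a subunit of the proteasome cap, was at 758, 725 and 712 CPM in the regrown libraries, against 342, 309.9 and 303 CPM in the parental libraries, a log2 change of 1.20 ± 0.09 (SE) with an edgeR adjusted p of 1.06e-07. FBXO45, a ubiquitin ligase subunit, had a log2 change of 1.22 and SENP2, another SUMO protease, of 1.37 (edgeR adjusted p = 1.66e-07 and 1.69e-07). In the cell cycle and DNA repair list, 5 of 7 were higher and none lower, a share near the 68.3% of all tested members called higher. Of all genes 22.6% were called higher and 21.1% lower. ZMAT3 and RNF168, given above, are also in this list. There ACTL6A, a subunit of chromatin remodelling complexes, had 80.1, 91.7 and 69 CPM in the regrown libraries, against 44, 46.9 and 54.4 CPM in the parental libraries (a log2 change of 0.73 ± 0.12 (SE) with an edgeR adjusted p of 0.000208), and TBCCD1, a centrosome gene, had a log2 change of 0.96 (edgeR adjusted p = 0.000238).

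The 8 signalling genes were all called higher, where 68.3% of all tested members and 22.6% of all genes were. GNB4, a G-protein beta subunit, was at 201, 214 and 214 CPM in the regrown libraries, against 73.6, 75 and 69.7 CPM in the parental libraries, a log2 change of 1.53 ± 0.09 (SE) with an edgeR adjusted p of 1.06e-08. PAK2, a kinase downstream of Rac and Cdc42, was at 286, 272 and 314 CPM in the regrown libraries, against 113, 112 and 105 CPM in the parental libraries, a log2 change of 1.40 ± 0.09 (SE) with an edgeR adjusted p of 3.86e-08. DVL3, an adaptor of Wnt signalling, and ACAP2, which switches off the small GTPase Arf6, had log2 changes of 1.31 and 1.16 (edgeR adjusted p = 2.15e-07 and 1.8e-06). The groups did not overlap for any of the 4, which were named for their low p in this comparison.

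Of the trafficking and transport genes, 9 of 12 were called higher and none lower in the WT libraries, a share near that of all tested members (68.3%; 22.6% of all genes). TFRC, which takes up iron-loaded transferrin, was at 912, 949 and 909 CPM in the regrown libraries, against 426, 423 and 397 CPM in the parental libraries, a log2 change of 1.15 ± 0.08 (SE) with an edgeR adjusted p of 1.04e-07. AP2M1, a subunit of the clathrin adaptor that carries the transferrin receptor into the cell, was at 298, 301 and 302 CPM in the regrown libraries, against 127, 129 and 133 CPM in the parental libraries, a log2 change of 1.21 ± 0.08 (SE) with an edgeR adjusted p of 5.93e-08. The ratio of fitted levels, regrown over parental, was 2.22 for the receptor and 2.31 for its adaptor. The groups were apart for both, which were named for their low p in this comparison. CCDC50, a regulator of epidermal growth factor receptor turnover, and ATP13A3, a polyamine transporter, had log2 changes of 1.73 and 1.25 (edgeR adjusted p = 3.47e-08 and 6.84e-08).

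Of 8 mitochondrial and metabolic genes, 7 were called higher and none lower, where 68.3% of all tested members and 22.6% of all genes were called higher and 21.1% of all genes lower. OPA1 and MFN1, both of mitochondrial fusion, had log2 changes of 1.14 and 0.89, PCYT1A, of phosphatidylcholine synthesis, had 0.86, and NDUFB5, a subunit of respiratory complex I, had 0.78. Their edgeR adjusted p-values were 5.76e-07, 1.53e-05, 9.26e-06 and 9.89e-05. The exception was EHHADH, an enzyme of peroxisomal fatty acid oxidation, described below. All 5 tested glycosylation and ER genes of 6 were higher: ST6GAL1, which adds sialic acid to glycoproteins, is given below, and ALG3, PIGX and DNAJB11 had log2 changes of 1.02, 1.18 and 0.95 (edgeR adjusted p = 1.21e-06, 2.03e-06 and 2.96e-06). Of 3 secreted-factor members, 2 were tested. THPO, the gene of thrombopoietin, was at 24.9, 27 and 24.4 CPM in the regrown libraries, against 11, 11 and 12.7 CPM in the parental libraries, a log2 change of 1.13 ± 0.14 (SE) with an edgeR adjusted p of 1.4e-05, and CHRD, an antagonist of bone morphogenetic proteins, was not called, with 22.6, 23.9 and 17 CPM in the regrown libraries, against 19.7, 16.8 and 18.9 CPM in the parental libraries (log2 change 0.20 ± 0.15).

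**Figure D3:**
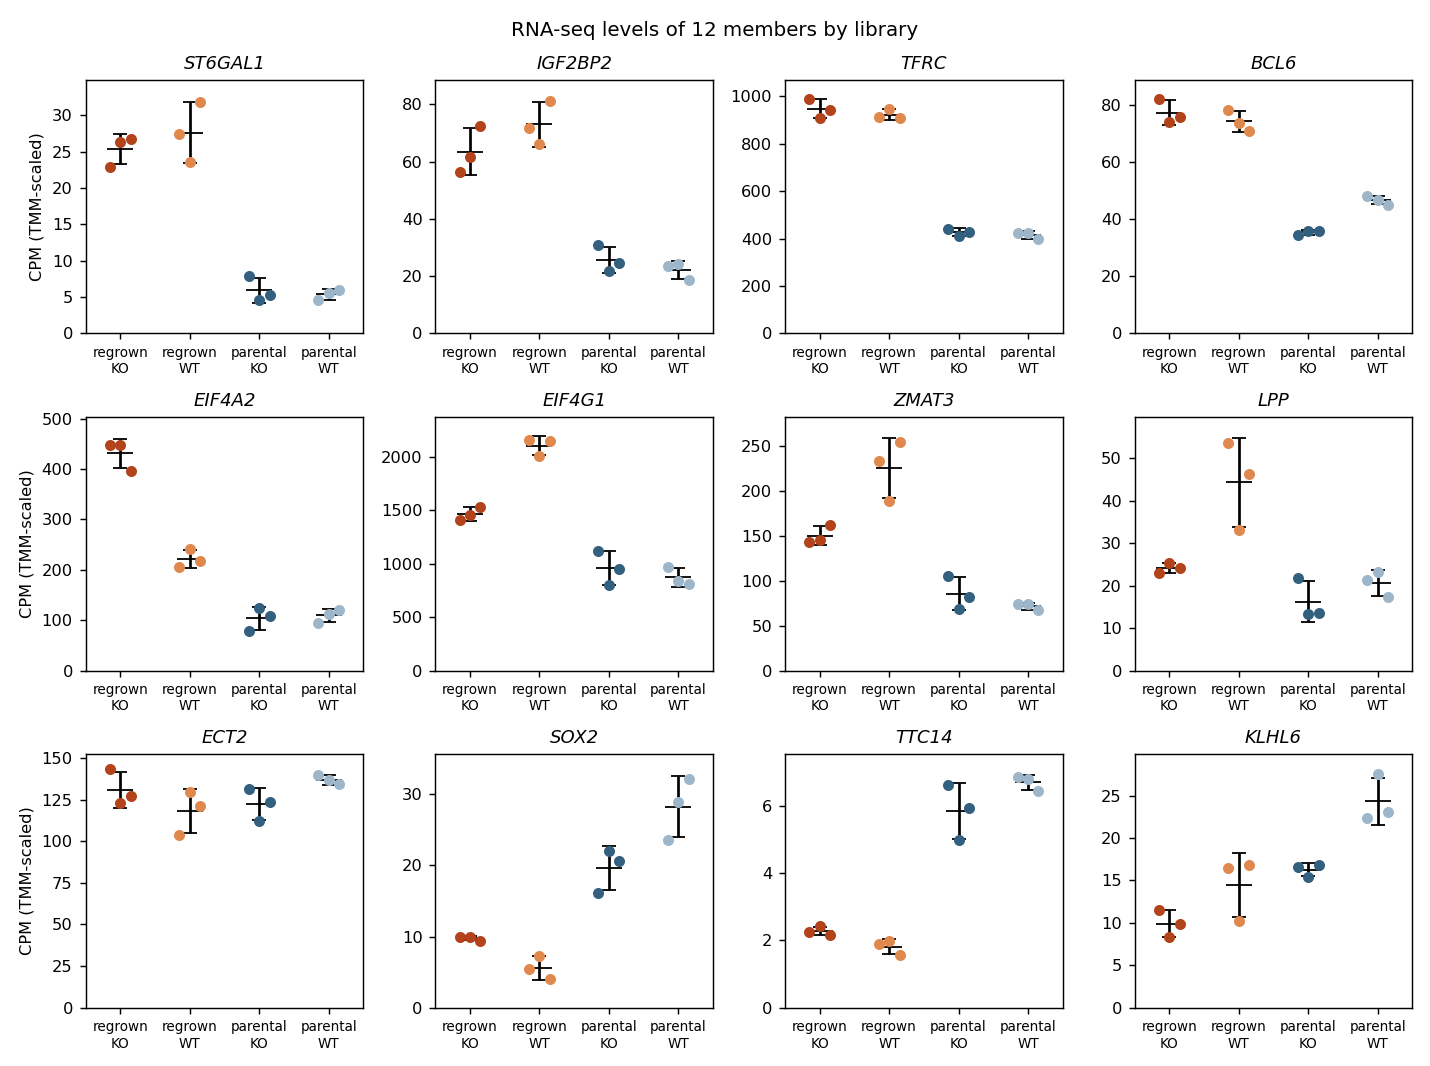
RNA-seq level in TMM-scaled CPM of 12 members in each library (points), with the mean and SD of each group of 3 (bars), for regrown knockout, regrown WT, parental knockout and parental WT cells. The first 8 genes have higher means in both regrown groups than in both parental groups, ECT2 differs little, and SOX2, TTC14 and KLHL6 are lower; EIF4A2 is highest, and EIF4G1, ZMAT3 and LPP are lower, in the regrown knockout libraries than in the regrown WT ones.

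The departures from the segment were large at both ends. The highest change in the WT RNA-seq was that of MB21D2, a gene related to the DNA sensor cGAS by sequence, at 6.23, 4.5 and 7.4 CPM in the regrown libraries, against 0.674, 0.616 and 0.853 CPM in the parental libraries, a log2 change of 3.06 ± 0.35 (SE) with an edgeR adjusted p of 8.12e-06. ST6GAL1 was at 27.5, 23.5 and 31.8 CPM in the regrown libraries, against 4.55, 5.6 and 5.92 CPM in the parental libraries, a log2 change of 2.36 ± 0.17 (SE) with an edgeR adjusted p of 1.15e-07. Their fitted levels were 8.32 and 5.13 times the parental ones, well past the segment's median ratio of 1.91. MAP6D1, the next, was low in every library (1.52, 1.07 and 1.2 CPM in the regrown libraries, against 0.281, 0.392 and 0.284 CPM in the parental libraries, with a log2 change of 1.97 and an edgeR adjusted p of 0.0105), and its call was lost without parental WT replicate 1 or 3. MAP6D1 passes the filter on low counts only through the regrown libraries, so its call is no support for a rise. In PRO-seq MB21D2 and ST6GAL1 stood at log2 changes of 1.83 and 1.95. In PRO-seq itself the highest member was LINC00884, chosen for mention after its values were seen, at 21.2, 18.3 and 26.7 CPM in the regrown libraries, against 4.41, 5.57 and 4.04 CPM in the parental libraries (log2 change 2.24). Its RNA was close to the floor, at 0.576, 0.749 and 0.602 CPM in the regrown libraries, against 0.618, 0.056 and 0 CPM in the parental libraries, and was not called in the WT libraries (edgeR adjusted p = 0.191).

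Of the members called lower, SOX2 fell furthest. SOX2, a stem-cell transcription factor that is expressed in a share of ALK-positive lymphoma cells, was at 5.44, 7.28 and 4.03 CPM in the regrown libraries, against 23.6, 29 and 32.1 CPM in the parental libraries, a log2 change of -2.33 ± 0.20 (SE) with an edgeR adjusted p of 5.9e-07. The highest regrown library lay below the lowest parental one. It was lower in the knockout libraries too, with 9.92, 9.94 and 9.41 CPM in the regrown libraries, against 16.1, 22 and 20.7 CPM in the parental libraries (a log2 change of -1.04 ± 0.14 (SE) with an edgeR adjusted p of 0.000462). In DGE with DMSO it was the 1 member called lower, at 35.3, 11.2 and 34 CPM in the regrown libraries, against 54.3, 68.7 and 79 CPM in the parental libraries (a log2 change of -1.36 ± 0.40 (SE) with an edgeR adjusted p of 0.0358), but that call was lost by DESeq2 and without parental DMSO replicate 1, 2 or 3 or regrown DMSO replicate 2. In DGE SOX2 passes the filter on low counts only through the parental libraries, so that call is no support for its fall. In PRO-seq the groups were not apart for SOX2, with 17, 23.8 and 22.6 CPM in the regrown libraries, against 19.9, 21.9 and 22.4 CPM in the parental libraries and a log2 change of -0.02 ± 0.15. SOX2 is a short gene of 2.51 kb.

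TTC14, a tetratricopeptide-repeat gene, was low in regrown cells in both assays. In RNA-seq it was at 1.88, 1.98 and 1.56 CPM in the regrown libraries, against 6.85, 6.78 and 6.45 CPM in the parental libraries, a log2 change of -1.88 ± 0.26 (SE) with an edgeR adjusted p of 5.24e-05, and in PRO-seq at 1.3, 1.73 and 4.08 CPM in the regrown libraries, against 6.79, 7.6 and 7.63 CPM in the parental libraries (log2 change -1.61). It belongs to a run of 4 successive members, PEX5L, AC125618.1, TTC14 and CCDC39, with starts between 179.801 and 180.614 Mb, that all had PRO-seq changes below 0 (-0.53, -1.57, -1.61 and -0.72) amid raised neighbours. It was the longest such run; the other 11 members below 0 stood alone or in runs of 2 or 3. PEX5L, which regulates ion channels, was called lower in RNA-seq at 5.76, 7.01 and 9.69 CPM in the regrown libraries, against 12, 12.7 and 14.7 CPM in the parental libraries (a log2 change of -0.81 ± 0.20 (SE) with an edgeR adjusted p of 0.00503). AC125618.1 lies on the opposite strand and overlaps the start of TTC14, and without strand the reads of the overlap cannot be told apart.

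The promoters of the 2 members with the largest rise in the WT RNA-seq and of the 2 with the largest called fall are shown because each pair moved far from the segment's median. They are RefSeq promoter windows of GRCh38.p14, 250 bases before to 50 after the start, read 5′ to 3′ on the gene's own strand, with CpG dinucleotides in capitals. The windows are chr3:192917807-192918106 (minus strand) for MB21D2, chr3:186930276-186930575 (plus) for ST6GAL1, chr3:181711675-181711974 (plus) for SOX2 and chr3:180601913-180602212 (plus) for TTC14.
MB21D2: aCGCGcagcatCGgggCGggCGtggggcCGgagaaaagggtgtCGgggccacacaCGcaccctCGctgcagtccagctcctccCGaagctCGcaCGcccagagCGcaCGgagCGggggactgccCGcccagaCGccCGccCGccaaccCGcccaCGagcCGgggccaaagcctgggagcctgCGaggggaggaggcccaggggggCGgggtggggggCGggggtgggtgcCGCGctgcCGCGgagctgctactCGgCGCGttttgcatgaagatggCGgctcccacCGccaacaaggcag
ST6GAL1: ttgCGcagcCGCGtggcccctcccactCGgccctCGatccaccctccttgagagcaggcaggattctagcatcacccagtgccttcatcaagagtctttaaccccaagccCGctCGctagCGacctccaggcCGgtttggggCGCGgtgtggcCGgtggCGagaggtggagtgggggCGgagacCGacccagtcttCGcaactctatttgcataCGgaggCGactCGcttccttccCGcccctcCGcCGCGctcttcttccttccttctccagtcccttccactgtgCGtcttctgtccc
SOX2: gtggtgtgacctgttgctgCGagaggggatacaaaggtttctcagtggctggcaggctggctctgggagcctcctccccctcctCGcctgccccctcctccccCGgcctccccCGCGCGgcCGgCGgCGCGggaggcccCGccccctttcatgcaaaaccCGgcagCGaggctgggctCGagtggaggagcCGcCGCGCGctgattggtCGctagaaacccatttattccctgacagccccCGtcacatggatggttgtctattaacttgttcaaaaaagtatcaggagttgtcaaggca
TTC14: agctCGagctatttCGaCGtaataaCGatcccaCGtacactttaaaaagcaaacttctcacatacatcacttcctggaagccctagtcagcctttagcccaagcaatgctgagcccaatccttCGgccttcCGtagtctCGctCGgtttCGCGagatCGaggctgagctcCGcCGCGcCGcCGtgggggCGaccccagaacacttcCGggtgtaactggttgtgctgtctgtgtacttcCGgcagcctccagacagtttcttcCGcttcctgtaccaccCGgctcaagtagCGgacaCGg

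All 4 windows are rich in CpG, whether the gene rose or fell: MB21D2 has 34 CpG, ST6GAL1 24, SOX2 20 and TTC14 24, where the median of all 27305 promoters in the table is 14 and that of the 98 members found in it is 24. A set of 3 short motifs was searched on both strands in the same windows: those of AP-1 and of interferon regulatory factors, families active in this lymphoma, and the TATA box. The AP-1 site TGANTCA was present in 6 of 98 member promoters (6.12%), and in 7.76% of all. The paired interferon regulatory factor site (GAAA, NN and GAAA without a gap) was in 3 (3.06%), and in 3.65% of all. The TATA box TATAAA was in 9 (9.18%), and in 12% of all. None of the 3 occurs in the 4 windows printed, which says only that these letters are not there.

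Other members stood below their neighbours in 1 assay or in both. VWA5B2, a von Willebrand domain gene, was called lower in RNA-seq at 3.35, 1.98 and 2.59 CPM in the regrown libraries, against 5.78, 6.0 and 6.45 CPM in the parental libraries (a log2 change of -1.20 ± 0.27 (SE) with an edgeR adjusted p of 0.00238). KLHL6, a ubiquitin ligase adaptor of lymphocytes, was called lower at 16.4, 10.2 and 16.8 CPM in the regrown libraries, against 22.4, 27.5 and 23 CPM in the parental libraries (a log2 change of -0.75 ± 0.18 (SE) with an edgeR adjusted p of 0.00367). In PRO-seq both lay below 0, at -0.88 and -0.70. VWA5B2 overlaps ALG3 at its end on the opposite strand, and ALG3 changed the other way. LINC02026, a non-coding RNA, was called lower at 0.314, 0.321 and 0.481 CPM in the regrown libraries, against 0.955, 1.51 and 0.901 CPM in the parental libraries (edgeR adjusted p = 0.0364), a call lost by DESeq2, with no filter, under a replicate block and without any parental WT library or regrown WT replicate 1 or 2. It passes the filter on low counts only through the parental libraries, so its call is no support for a fall. EHHADH, chosen for mention after its values were seen, had PRO-seq levels of 9.59, 9.05 and 12.1 CPM in the regrown libraries, against 25.7, 22.2 and 19.2 CPM in the parental libraries (log2 change -1.12). Its RNA-seq groups overlapped, at 5.76, 5.67 and 4.33 CPM in the regrown libraries, against 6.46, 4.32 and 4.79 CPM in the parental libraries (a log2 change of 0.02 ± 0.25 (SE) with an edgeR adjusted p of 0.957). LPP, a focal adhesion gene 678 kb long, went the other way. Its PRO-seq values spread widely over the pools (258, 155 and 96.8 CPM in the regrown libraries, against 194, 226 and 168 CPM in the parental libraries), and its RNA-seq level was higher, at 53.6, 33.1 and 46.4 CPM in the regrown libraries, against 21.2, 23.3 and 17.3 CPM in the parental libraries (a log2 change of 1.11 ± 0.17 (SE) with an edgeR adjusted p of 0.000105). In DGE with DMSO LPP was not called, with a log2 change of -0.27. The 2 other transcripts at the bottom of the RNA-seq order, LINC02043 and ZDHHC19, were under 2 CPM in every library and were not called in the WT libraries (log2 changes -1.70 and -1.26). In the knockout libraries LINC02043 was called lower (log2 change -1.30), and ZDHHC19 was not tested. MELTF, not called in the WT libraries, was also called lower there (log2 change -0.52). Of the 7 members called lower in the knockout libraries, 6 pass the filter on low counts in each group alone.

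Across members, the PRO-seq change and the RNA-seq change went together to a moderate degree: Spearman's rho was 0.30 over 101 members in the WT libraries and 0.55 over 102 in the knockout libraries. Pearson's r was 0.54 and 0.70. These describe genes within the same cell pools, which are no independent replicates.

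Gene length moved with the RNA-seq values. Over 101 members the WT change was larger for longer genes (Spearman's rho 0.39, across genes), with medians of 0.74 for 52 members under 20 kb and 1.22 for 26 of 60 kb or more. The knockout libraries showed little of this (rho 0.05; medians 0.94 and 0.89), as did PRO-seq (rho -0.12; medians 1.04 and 0.85) and DGE (rho -0.16, 51 members). Over all genes the WT rho was 0.22 (12129 genes). The part of gene length in the members' RNA-seq changes was not tested.

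**Figure D4:**
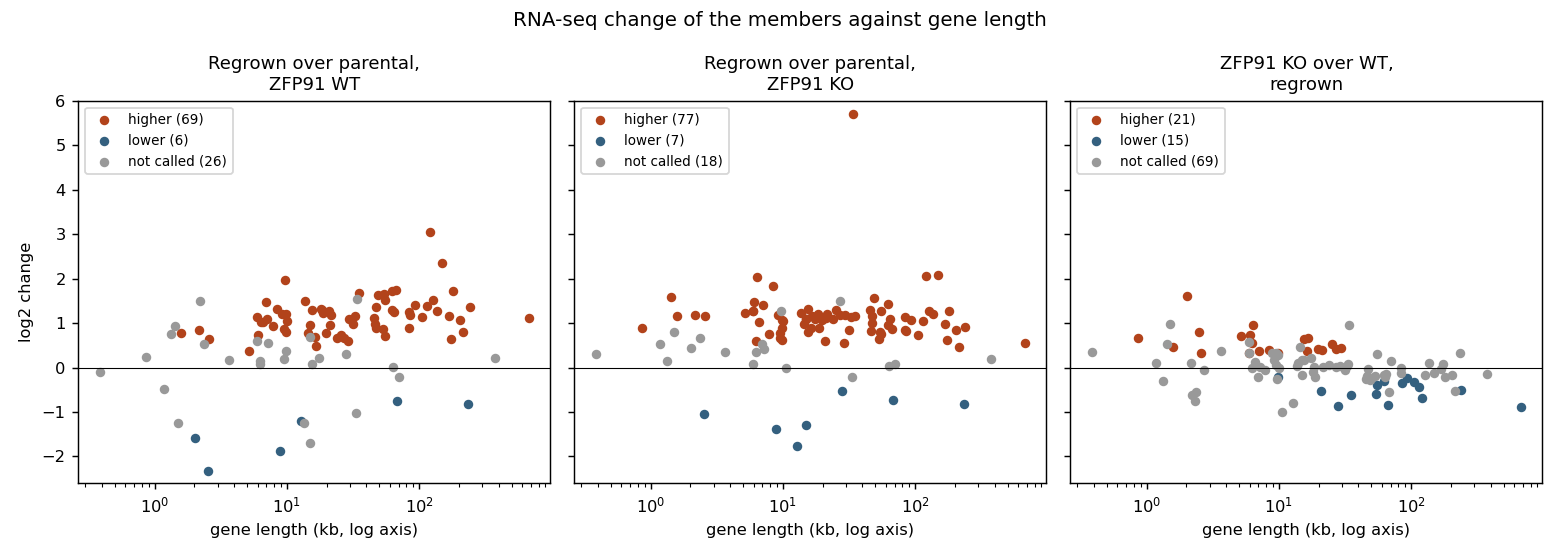
RNA-seq log2 change of each tested member against its gene length in kb on a log axis: regrown over parental in WT libraries, regrown over parental in knockout libraries, and knockout over WT in regrown cells. Members called higher are orange, called lower blue and not called grey, with their number in each legend; in the third panel the points slope down, and no member of 60 kb or more is called higher; the point at 5.71 in the knockout panel is LINC00884, whose parental knockout libraries held almost no reads.

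DGE was the shallowest assay. With DMSO, 51 members could be tested, 21 were called higher (41.2%), where 2.91% of 5941 genes were, and 1 was called lower, where 3.3% were. Only 28 of the 51 would pass the filter in both groups alone and 18 pass only through the regrown libraries, so the count is no support for the segment; of those 28, 15 were called higher. FBXO45 had the largest called change, with 103, 72.7 and 109 CPM in the regrown libraries, against 21.1, 26.9 and 25.3 CPM in the parental libraries (a log2 change of 1.92 ± 0.35 (SE) with an edgeR adjusted p of 0.000565). It passes the filter only through the regrown libraries, so its call is no support for the segment. ALG3 was at 321, 369 and 404 CPM in the regrown libraries, against 106, 146 and 94.8 CPM in the parental libraries (a log2 change of 1.64 ± 0.22 (SE) with an edgeR adjusted p of 7.83e-06), and TFRC was at 535, 604 and 604 CPM in the regrown libraries, against 274, 299 and 313 CPM in the parental libraries (a log2 change of 0.96 ± 0.18 (SE) with an edgeR adjusted p of 0.000701). TRA2B, not called in the WT RNA-seq, was higher here at 388, 559 and 472 CPM in the regrown libraries, against 214, 203 and 275 CPM in the parental libraries (a log2 change of 1.03 ± 0.20 (SE) with an edgeR adjusted p of 0.00117). These 4 were chosen after their DGE values were seen. Of the 21 members called higher, 19 were also called higher in the WT RNA-seq.

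Under lenalidomide, 40 members were tested and 5 were called higher in regrown cells, where 1.2% of 4648 genes were: TFRC, ALG3, AP2M1, EIF2B5 and PSMD2. TFRC was at 541, 868 and 901 CPM in the regrown libraries, against 262, 308 and 188 CPM in the parental libraries (a log2 change of 1.52 ± 0.27 (SE) with an edgeR adjusted p of 0.00124). None was called lower, where 1.57% were. Of the 40, 17 pass the filter in both groups alone and 16 pass only through the regrown libraries. This count too is therefore no support for the segment. Of those 17, 4 were called higher. EIF2B5, at 16.0, 2.83 and 47.1 CPM in the parental lenalidomide libraries, is the called member outside the 17. The parental group holds the library of 41571 counts. The higher count was 1 without parental replicate 1, and 2 without parental replicate 2 or regrown replicate 3.

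Lenalidomide itself moved no member past the threshold. In regrown cells edgeR called 0 of 56 tested members higher, where it called 0.23% of all genes, and 0 lower, where it called 0%. DESeq2 also called 0 in both directions. Of the 56, 4 had an unadjusted edgeR p under 0.05, as had 283 of all 5661 genes. In parental cells both tools called 0 of 37 higher, where edgeR called 0.673% of genes, and 0 lower, where it called 0.173%. Of the 37, 4 had an unadjusted edgeR p under 0.05, as had 503 of all 5796 genes. The summed level of the 97 members was 7231, 7510.4 and 8027 CPM with the drug and 7059.9, 7605 and 7271 CPM with DMSO in regrown cells. In parental cells it was 4013, 4197 and 3929 CPM with the drug and 3862, 3710.5 and 3968 CPM with DMSO. The raised level was thus present with and without drug. The test of the difference between the drug's effects in the 2 backgrounds called 0 of 57 members by edgeR and by DESeq2. By edgeR 0% of genes were called in each direction. Of the 57, 1 had an unadjusted edgeR p under 0.05, as had 285 of all 6838 genes. At these depths small changes were not detectable.

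The ZFP91 guide was induced to ask what loss of ZFP91, a zinc-finger protein that lenalidomide targets for degradation, does in each background. ZFP91 RNA was at 101, 83.5 and 78.2 CPM in the regrown knockout libraries and at 96.9, 97.1 and 89.7 CPM in the regrown WT ones, which overlap. In parental cells it was at 92.5, 85.3 and 85.4 CPM in the knockout libraries and at 109, 113 and 107 CPM in the WT ones. Neither change passed the test (edgeR adjusted p = 0.395 and 0.158). Cas9 edits need not lower the RNA, so these levels do not check the labels, and knockout below means the libraries labelled so. Induction also means doxycycline, which the WT libraries lacked, so the guide and doxycycline cannot be told apart.

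In parental cells no member was called by edgeR, of 98 tested, where 0.0599% of genes were called higher and 0.367% lower. Of the 98, 6 had an unadjusted edgeR p under 0.05, as had 1117 of all 13354 genes. DESeq2 called 3 members lower. The 2 with the lowest p, named after their values were seen, were KLHL6 and BCL6. BCL6 was at 34.3, 36 and 35.8 CPM in the knockout libraries, against 48, 46.7 and 45.1 CPM in the WT libraries (a log2 change of -0.41 ± 0.08 (SE) with an edgeR adjusted p of 0.107), groups that do not overlap though the call was missed.

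In regrown cells the segment did not move as a block. Of 105 tested members, 21 were called higher in the knockout libraries (20.0%), where 16.3% of all genes were, and 15 lower (14.3%), where 15.7% were; the median log2 change was 0.02. These shares lay near those of all genes. EIF4A2, the RNA helicase of translation initiation, was at 448, 448 and 397 CPM in the knockout libraries, against 207, 241 and 217 CPM in the WT libraries, a log2 change of 0.96 ± 0.08 (SE) with an edgeR adjusted p of 7.14e-05. TRA2B was at 410.1, 422 and 406 CPM in the knockout libraries, against 267, 315 and 262 CPM in the WT libraries, a log2 change of 0.55 ± 0.08 (SE) with an edgeR adjusted p of 0.000733. EIF4G1, EIF4A2's partner, was lower at 1406, 1458 and 1529 CPM in the knockout libraries, against 2159, 2004 and 2147 CPM in the WT libraries, a log2 change of -0.53 ± 0.07 (SE) with an edgeR adjusted p of 0.000558. SENP5 and RNF168 were lower as well, with log2 changes of -0.85 and -0.63 (edgeR adjusted p = 0.000568 and 0.000631). EIF4A2 and EIF4G1 each overlap other rows on their own strand.

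Gene length moved with this response. Members under 20 kb were called higher in 17 cases and lower in 1 of 55. Those of 60 kb or more were called higher in 0 and lower in 9 of 26. Of all genes 16.3% were called higher and 15.7% lower, but their calls were not counted by length. These counts therefore do not set the segment apart from other genes. Spearman's rho between length and change was -0.47 over 105 members and -0.33 over 11912 genes, and in parental cells 0.15 over 98 members. Its part in the calls was not tested. The calls also leaned on single libraries: without knockout replicate 1 the higher count fell to 10, and without knockout replicate 2 the lower count fell to 9.

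Tested directly, the knockout's effect differed between regrown and parental cells for 11 of 108 members, 8 with a higher and 3 with a lower change in regrown cells, where 4.47% and 5.33% of 14267 genes were called. In both directions together that is 10.2% of the members, a share near the 9.81% of all genes. EIF4A2 had a difference of 1.04 ± 0.19 on the log2 scale (edgeR adjusted p = 0.0238): beside its rise in regrown cells, its parental libraries gave 78.2, 124 and 108 CPM in the knockout libraries, against 95.5, 113 and 120.4 CPM in the WT libraries. SOX2 had a difference of 1.32 ± 0.26 (edgeR adjusted p = 0.0238). Its regrown libraries were at 9.92, 9.94 and 9.41 CPM in the knockout libraries, against 5.44, 7.28 and 4.03 CPM in the WT libraries, and its parental libraries were at 16.1, 22 and 20.7 CPM in the knockout libraries, against 23.6, 29 and 32.1 CPM in the WT libraries. ZMAT3, EIF4G1 and POLR2H, a subunit shared by the RNA polymerases, had differences of -0.84, -0.66 and 0.89 (edgeR adjusted p = 0.0251, 0.027 and 0.0288). These calls leaned on single libraries. Both counts fell to 0 without parental WT replicate 2 or 3, parental knockout replicate 3, regrown WT replicate 1 or 3, or regrown knockout replicate 1 or 2. The higher count was 4 without parental knockout replicate 1 and 3 without regrown knockout replicate 3, and without parental knockout replicate 2 the counts were 17 higher and 10 lower.

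The CSNK2B vector experiments show the same genes in cells whose labels name no selection with lenalidomide. CSNK2B, the regulatory subunit of casein kinase 2, was at 252, 258 and 245 CPM with the vector and at 30.7, 29.4 and 30.0 CPM with the empty vector in SU-DHL-1. In KI-JK it was at 81.3, 80.8 and 76.7 CPM with the vector and 18.3, 15.7 and 18.2 CPM with the empty vector. In SU-DHL-1, 0 of 100 tested members were called higher, where 3.39% of all genes were, and 1 was called lower, where 3.34% were. Of the 100, 16 had an unadjusted edgeR p under 0.05, as had 2540 of all 13727 genes. DESeq2 called 2 lower, as did edgeR without CSNK2B vector replicate 2 or 3. The member called lower was LPP, at 34.2, 39.3 and 37.6 CPM in the CSNK2B vector libraries, against 48, 48 and 54.2 CPM in the empty vector libraries (a log2 change of -0.43 ± 0.06 (SE) with an edgeR adjusted p of 2.7e-05). The members' summed level was 4827, 4964 and 4875 CPM with the vector and 4962, 4919 and 4878 CPM without it, which overlap.

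In KI-JK 26 of 104 members were called higher (25%), where 18.4% of all genes were, and 18 lower (17.3%), where 17.3% were. The share called lower lay at that of all genes. TFRC was the clearest, at 429, 452 and 442 CPM in the CSNK2B vector libraries, against 302, 299.9 and 303 CPM in the empty vector libraries, a log2 change of 0.55 ± 0.03 (SE) with an edgeR adjusted p of 7.89e-11. The 4 next in order of p were lower. CHRD was at 11.2, 13 and 10.9 CPM in the CSNK2B vector libraries, against 21.8, 22.3 and 21.2 CPM in the empty vector libraries, a log2 change of -0.90 ± 0.09 (SE) with an edgeR adjusted p of 4.66e-08. MUC20-OT1, a non-coding transcript, was at 21.4, 26.6 and 22.9 CPM in the CSNK2B vector libraries, against 45.2, 50.9 and 42 CPM in the empty vector libraries, a log2 change of -0.96 ± 0.08 (SE) with an edgeR adjusted p of 4.97e-09. SDHAP1, a pseudogene whose reads may be shared with the near-identical SDHA and its other copies, and UTS2B, which encodes a urotensin-related peptide and overlaps CCDC50 on the opposite strand, had log2 changes of -0.90 and -1.04 (edgeR adjusted p = 5.85e-10 and 1.14e-07). The members' summed level was 8473, 8493 and 8545 CPM with the vector and 7842, 7840.1 and 7876 CPM with the empty vector, with no overlap and a ratio of means of 1.08. The segment did not rise as a block, since 53 of the 104 tested members had log2 changes above 0 and 51 below. Their median log2 change was 0.01, beside -0.01 over all genes. In the translation list 8 of 12 were higher and none lower, where 25% of all tested members were higher. The 8 had log2 changes of at most 0.32. EIF4G1 had a log2 change of 0.24 ± 0.03 (edgeR adjusted p = 3.22e-06). Higher and lower calls were 5 and 2 of 11 for transcription factors and chromatin, and 4 and 1 of 10 for ubiquitin genes. They were 0 and 1 of 7 for cell cycle, 1 and 1 of 8 for signalling, and 3 and 4 of 12 for trafficking. They were 1 and 0 of 8 for mitochondria, 3 and 0 of 6 for glycosylation, and 0 and 1 of 2 for secreted factors. No list was tested against the other members. TFRC pointed the other way in SU-DHL-1, where it was at 469, 496 and 482 CPM in the CSNK2B vector libraries, against 527, 521 and 511 CPM in the empty vector libraries (a log2 change of -0.11 ± 0.03 (SE) with an edgeR adjusted p of 0.0638). The 2 lines were counted in separate tables, and the difference between them was not tested.

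**Figure D5:**
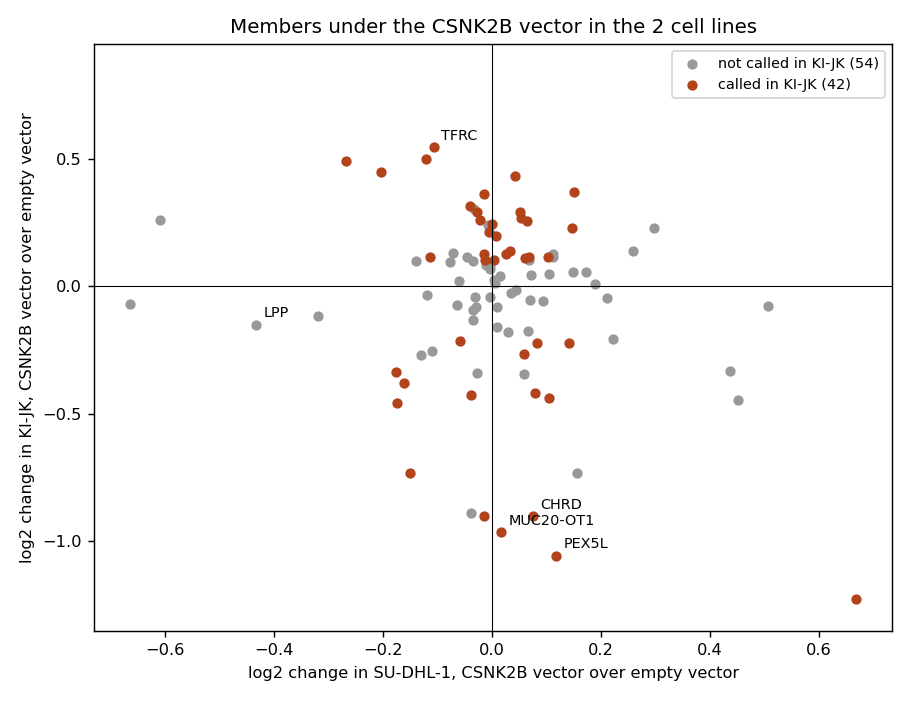
Log2 change of the 96 members tested in both lines, CSNK2B vector over empty vector, in SU-DHL-1 (horizontal) and KI-JK (vertical); the 42 called in KI-JK are orange and the 54 others grey. The points spread further in KI-JK, TFRC lies at 0.55 there and at -0.11 in SU-DHL-1, and LPP is the member called in SU-DHL-1.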

How the data were processed

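All tables held raw counts per gene as deposited by the authors. Per the submitters' processing notes, PRO-seq used cutadapt 1.14, Bowtie 1.2.2 and featureCounts 1.6.2 on hg38, DGE used Bowtie2 2.2.3 on hg19, and RNA-seq used STAR 2.6.1d; RNA-seq counting and strand are not given in the sources used here. The 38 ChIP samples were not analysed here.

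Members were found in the other tables by Ensembl identifier or, for DGE, by name. Counts were tested with edgeR 4.0.16 in R 4.3.3 (filterByExpr, TMM, quasi-likelihood test) on the 2 groups compared, or on all 4 groups for differences of effects, and p-values were adjusted by Benjamini-Hochberg over every gene of the fit, with a threshold of 0.05. The test was checked on simulated data. Levels are TMM-scaled CPM within a table; SE is that of the log2 change. DESeq2 1.42.0, other scalings and filters, a replicate block and leaving out each library were alternatives. Pool ratios used a pseudocount of 0.5 CPM (10 for DGE). Counting error alone is covered by the depths given.

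The segment, its members, the gene lists and the rule for named genes were chosen with earlier results of these data known. The rule named up to 4 members of each role list by RNA-seq p, the 5 largest and 5 smallest RNA-seq changes, the 5 genes on each side of each edge, up to 5 called members by p in each knockout, drug and vector comparison, and up to 5 members called lower.

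Within the regrown cells, equal numbers mark the same pool by the labels; deviations of same-numbered libraries correlated at 0.01, 0.03 and 0.13 for knockout against WT and at -0.07, 0.12 and 0.05 for lenalidomide against DMSO. All 42 same-group library pairs differed beyond sampling noise.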

Additional observations from a re-analysis of the deposited data

Results flagged for a closer look

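The effect of inducing the ZFP91 guide differed between regrown and parental cells, by edgeR's test of the difference itself, for 11 of 108 members (10.2%), a share near the 9.81% of all genes called. The difference of log2 changes, regrown minus parental, was above 0 for 8 of them: 1.04 for EIF4A2, 1.32 for SOX2, 0.89 for POLR2H, 0.45 for BCL6, 0.49 for TRA2B, 0.91 for SLC51A, 0.69 for RFC4 and 0.60 for ACTL6A. It was below 0 for 3: -0.84 for ZMAT3, -0.66 for EIF4G1 and -0.87 for SENP5. The edgeR adjusted p-values lay between 0.0238 and 0.0432, and 7 of the 12 libraries, left out one at a time, each took all 11 calls away.

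The log2 change of TFRC had opposite signs in the 2 lines under the CSNK2B vector, with no overlap between the libraries of either line: it was 0.55 in KI-JK and -0.11 in SU-DHL-1. This difference was not tested.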

How the results depend on the processing

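Most counts of called members stayed within 1.5 times of those reported, and none of the 69 named log2 changes turned its sign in the 924 refits. Of these, 50 lost the call and 8 gained it, among ECT2, LINC02026, LINC02043, MAP6D1, MELTF, MELTF-AS1, SOX2 in DGE and the knockout differences. Members of at least 500 mean PRO-seq counts held 4 lower in PRO-seq and had a median over the pools of 0.99 in PRO-seq and 0.98 in the knockout RNA-seq. Library size without TMM gave 10 lower in the WT RNA-seq and a median over the pools of 0.77 there. DESeq2 gave 0 lower in DGE with DMSO, 3 higher in DGE with lenalidomide, 3 lower for the guide in parental cells (as did no filter, also 3), 2 lower for CSNK2B in SU-DHL-1 and 6 lower for the knockout difference. Members that pass the filter in each group alone, a choice made after seeing the data, gave 0 lower in DGE with DMSO.

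Leaving out 1 library at a time gave ranges, members higher and then lower, of 99 to 107 and 4 to 8 in PRO-seq, 66 to 74 and 5 to 7 in WT RNA-seq, 74 to 78 and 6 to 6 in knockout RNA-seq, 14 to 26 and 0 to 1 in DGE with DMSO and 1 to 7 and 0 to 0 with lenalidomide. They were 0 to 0 for the guide in parental cells and for lenalidomide, 10 to 22 and 9 to 20 for the guide in regrown cells, 0 to 1 and 1 to 2 for CSNK2B in SU-DHL-1, 19 to 24 and 16 to 19 in KI-JK, and 0 to 17 and 0 to 10 for the knockout difference. The PRO-seq count of 4 lower was that without parental replicate 2. The causes were not tested.

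A replicate block gave 1 higher and 4 lower in SU-DHL-1 with CSNK2B, where the numbers are not known to pair cultures (correlations of deviations 0.06, 0.04 and 0.19), and changed no other count by over 1.5 times. DGE depth limits what could be tested there to between 37 and 57 members.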
